A study of Mus musculus with 6 samples.

Results

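The replication-dependent histone genes encode the bulk of the H1, H2A, H2B, H3 and H4 proteins that package newly copied DNA. Their members were taken as every gene whose symbol in a deposited table of genes around ChIP-seq regions begins with Hist and a digit. The rule found 62 genes among 3403 distinct gene identifiers in the 3 tables. All 62 were named around regions of the Spt16 list, where 32 of 1253 regions named at least 1 of them, and none was named by the 265 Oct4 regions or the 24 Jmjd1c regions. The genes were thus chosen by the authors' calls of ChIP over input reads, and the number named is a description that was not tested.

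The libraries came from tet-ON Oct4 embryonic stem cells of strain C57BL/6, in which doxycycline switches on an Oct4 transgene. All cells had been differentiated with retinoic acid and then received PBS or doxycycline. The list headers describe the 10 h Oct4, Spt16, Jmjd1c and input samples as taken after 10 h of doxycycline. Chromatin was immunoprecipitated with antibodies against Oct4 (0 h and 10 h), Spt16 (10 h) or Jmjd1c (10 h), and input chromatin was sequenced from both times, 1 library for each group. The labels call the cells embryonic stem cells although they were differentiated, and region lists hold no expression values with which to check either state. The deposited lists set ChIP reads at 10 h against input reads of the same time; the 0 h Oct4 and input libraries were not analysed here, so no value below is a change with induction. The Spt16 library was the deepest with 36669596 reads, followed by Jmjd1c with 26736842, Oct4 with 15543450 and the input with 14592994. With 1 library per group no difference could be tested over replicates, and every interval below covers counting error only. Intervals over regions or genes treat them as independent, although many are neighbours or close copies, so they are no test.

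Replication-dependent histone genes lie in dense clusters, mostly lack introns, and are transcribed in large amounts in S phase from a nuclear structure called the histone locus body. Their mRNAs end in a stem-loop, cut out with the help of the U7 small nuclear RNA, in place of a poly(A) tail. Spt16 is the larger subunit of FACT, a chaperone that moves H2A-H2B dimers off and onto nucleosomes as polymerases pass. Oct4 is a POU-domain factor of pluripotent cells whose DNA element, the octamer, also occurs in H2B promoters, where the related factor Oct1 (Pou2f1) acts. Jmjd1c belongs to a family of histone H3 lysine demethylases.

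The promoters below are shown because they carry elements found at different shares in the histone classes. Each of these genes also had a Spt16 region downstream of its start. Every H2B promoter shown holds the octamer, which was found in 6 of 14 H2B promoters. They run from 250 bases before to 50 bases after the RefSeq gene start on GRCm38.p6, a different build from the mm9 regions. Capitals mark the octamer ATTTGCAT, the CCAAT box CCAAT, the TATA box TATAAA and the H1 box AAACACA, searched on both strands. The genes were chosen for printing after their values were seen.
Hist1h1e, chr13:23622509-23622808, minus strand: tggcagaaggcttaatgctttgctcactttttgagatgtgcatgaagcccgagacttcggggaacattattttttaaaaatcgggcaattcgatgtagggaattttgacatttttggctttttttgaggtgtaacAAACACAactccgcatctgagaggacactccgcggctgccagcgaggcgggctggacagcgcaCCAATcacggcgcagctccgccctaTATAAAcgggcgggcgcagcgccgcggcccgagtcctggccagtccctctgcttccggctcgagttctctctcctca
Hist1h2bg, chr13:23571150-23571449, plus strand: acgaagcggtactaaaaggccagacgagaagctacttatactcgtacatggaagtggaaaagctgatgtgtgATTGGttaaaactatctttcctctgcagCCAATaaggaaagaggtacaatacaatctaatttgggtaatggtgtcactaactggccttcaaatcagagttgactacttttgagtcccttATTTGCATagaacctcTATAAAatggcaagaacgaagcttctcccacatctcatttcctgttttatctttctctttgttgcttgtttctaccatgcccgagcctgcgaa
Hist1h2bk, chr13:22035571-22035870, plus strand: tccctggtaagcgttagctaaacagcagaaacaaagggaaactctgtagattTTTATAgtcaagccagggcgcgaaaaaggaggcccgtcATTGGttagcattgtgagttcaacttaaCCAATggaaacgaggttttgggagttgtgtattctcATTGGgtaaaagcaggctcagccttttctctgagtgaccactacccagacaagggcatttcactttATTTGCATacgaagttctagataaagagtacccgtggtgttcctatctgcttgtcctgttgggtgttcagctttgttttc
Hist2h2bb, chr3:96269450-96269749, plus strand: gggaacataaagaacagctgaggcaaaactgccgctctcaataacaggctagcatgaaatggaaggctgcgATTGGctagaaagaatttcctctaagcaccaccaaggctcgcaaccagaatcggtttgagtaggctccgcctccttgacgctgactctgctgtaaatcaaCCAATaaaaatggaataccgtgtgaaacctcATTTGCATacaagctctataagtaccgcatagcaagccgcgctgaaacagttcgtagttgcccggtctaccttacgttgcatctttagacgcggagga
In Hist1h1e the H1 box, an element of linker histone promoters, began 115 bases before the start, with the CCAAT box at 52 and the TATA box at 27. In Hist1h2bg the octamer began 59 bases before the start and the TATA box 43. The octamer began 30 bases before the start of Hist1h2bk and 48 before that of Hist2h2bb. No marked element shared a base with another in these 4 windows.

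Promoter elements were counted in the 57 members with a RefSeq promoter window. The octamer was found in 10 of them (17.5%), against 1.75% of 27025 promoters of all genes. Those 10 were 4 of 15 H2A and 6 of 14 H2B genes, and none of the H1, H3 and H4 genes held it. H2A and H2B genes in divergent pairs have overlapping windows, so 1 octamer can be counted for both. The CCAAT box, found in 37.9% of all promoters, was present in 6 of 6 H1, 15 of 15 H2A, 14 of 14 H2B and 10 of 10 H3 genes but in 3 of 12 H4 genes. The H1 box (7.14% of all promoters) was present in 5 of 6 H1 genes, 1 of 15 H2A genes and 1 of 14 H2B genes, and in no H3 or H4 gene. TATAAA (14.2% of all promoters) was found in 4 of 6 H1, 9 of 15 H2A, 6 of 14 H2B, 4 of 10 H3 and 8 of 12 H4 genes. Of the 10 genes with an octamer, 4 had a Spt16 region up to 1 kb downstream of the start, and of the 47 without it, 24 did. None of the 10 was named by an Oct4 region. A match to these letters describes the sequence and is not evidence of binding.

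By cluster, 51 of the 62 genes belonged to Hist1 on chromosome 13, 10 to Hist2 on chromosome 3 and 1, Hist4h4, to Hist4 on chromosome 6. As background, 9.59% of 21900 protein-coding RefSeq genes were named in any row of the Spt16 gene table, 2.05% in that of Oct4 and 0.187% in that of Jmjd1c. RefSeq lists 70 genes with a cluster histone name, and the 62 members matched 62 of them. The other 8 were Hist1h2aa, Hist1h2ac, Hist1h2al, Hist1h2ba, Hist1h2bc, Hist3h2a, Hist3h2ba and Hist3h2bb. Hist1h2aa and Hist1h2ba are testis-specific variants, and Hist1h2al and Hist3h2bb are annotated as pseudogenes. All 3 genes of the Hist3 cluster on chromosome 11 were thus unnamed, although the Spt16 list held 78 regions on that chromosome.

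Spt16 regions at the histone genes fell into 5 stretches of the genome. On chromosome 13, 7 regions between 21808671 and 21903129 (mm9) named 19 genes, 2 regions between 22128082 and 22132420 named 5, and 15 regions between 23583846 and 23856114 named 27. On chromosome 3, 7 regions within 91.3 kb (96042023 to 96133323) named 10 genes, and Hist4h4 on chromosome 6 had 1 region of its own. Every Spt16 region inside these stretches named a histone gene. The histone regions made up 24 of the 63 Spt16 regions on chromosome 13 (38.1%), 7 of 66 on chromosome 3 (10.6%) and 1 of 76 on chromosome 6 (1.32%).

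The regions held 26 to 45 Spt16 reads in their best window, with a median of 32. In reads per 1000000 library reads (RPM) this was 0.709 to 1.23, with a median of 0.873, below the median of 1.01 over all Spt16 regions (37 reads, range 26 to 217). Reads fell on both strands, 525 on the plus and 512 on the minus. Only 3 input reads fell in all 32 windows together, and 29 regions had none (90.6%, 95% Clopper-Pearson interval 75.0 to 98.0), against 68.0% of all Spt16 regions. The authors' threshold sets much of this share, since no Spt16 region with under 33 reads was listed with an input read, and 17 histone regions were under 33. Of the 15 with 33 reads or more, 12 had no input read (80.0%, 51.9 to 95.7), as had 270 of the 451 other Spt16 regions with 33 to 45 reads (59.9%, 55.2 to 64.4), and these intervals overlap. By rank the histone regions ran from 261 to 1237 in the list, and 12 of the 32 were in its higher-scoring part. The lowest value that passed the authors' threshold with 0 input reads was 26, and 5 histone regions (at Hist1h4j, Hist1h2bk, Hist1h2bh, Hist1h3f and Hist1h2ab) sat at it; regions under the threshold were not analysed here.

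**Figure D1:**
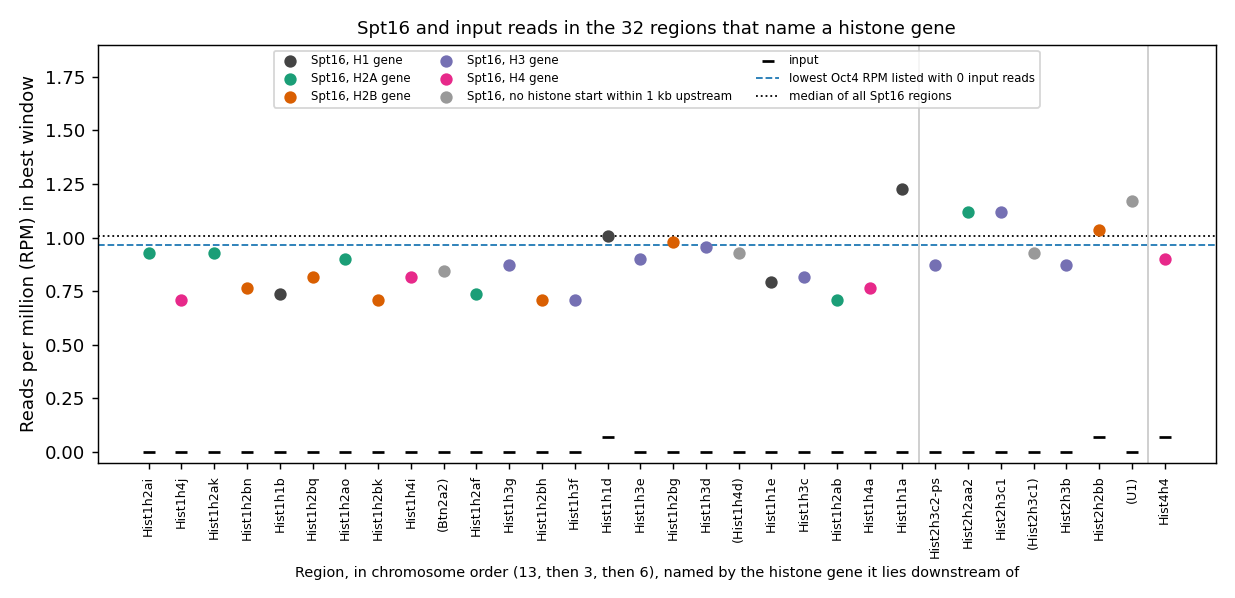
Spt16 RPM (points, coloured by class) and input RPM (dashes) in the best window of each of the 32 regions, 1 library each, in chromosome order; the blue line is the lowest Oct4 RPM listed with 0 input reads (0.965) and the dotted line the median of all Spt16 regions (1.01). Names in brackets give the nearest named gene where no histone start lay within 1 kb; the highest point is the region in Hist1h1a at 1.23 RPM, and 3 regions have an input read.

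Linker histone H1 genes carried the highest histone region. It lay in Hist1h1a (chr13:23855608-23856114) with its middle 325 bp downstream of the start, and held 45 Spt16 reads and 0 input reads. Set against the floor of 3 input reads, it was at least 5.97-fold higher than input. All regions were listed for exceeding input, so the folds and intervals given here and below describe them and are no test. At 0 input reads the lowest listed count, 26, already gives at least 3.45-fold. Hist1h1d had a region 789 bp downstream of its start with 37 reads against 1 input read, a ratio of 14.7 (95% counting interval 2.48 to 597). Hist1h1e had 29 reads and Hist1h1b 27, both with 0 input reads, at 495 and 364 bp. The 4 H1 regions therefore spanned most of the range of the histone regions. The remaining H1 genes had no region near them: the nearest lay 6081 bp from Hist1h1c and 49077 bp from Hist1h1t, the testis-specific H1.

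Of the 16 H2A genes, 7 had a region up to 1 kb downstream of the start, served by 6 regions assigned to H2A and 1 assigned to an H3 gene. Among the 16, Hist1h2aj is annotated as a pseudogene in RefSeq, and its nearest region was 5161 bp away. H2A forms with H2B the dimer that FACT handles. The highest count, 41 reads against 0 input reads (at least 5.44-fold), was shared by the region 635 bp downstream of Hist2h2aa2 (chr3:96043343-96043817) and the one downstream of Hist2h2aa1, which is described with H3. Both deposited genes are 577 bp long, and reads that match both copies could have been split or misplaced between them. Hist1h2ai (chr13:21808671-21809005, 558 bp) and Hist1h2ak (chr13:21845125-21845424, 501 bp) had 34 reads each against 0 (at least 4.51-fold). Hist1h2ao had 33 reads, Hist1h2af 27 and Hist1h2ab 26, each with 0 input reads. The median over the 6 H2A regions was 33.5 reads.

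Of the 15 H2B genes, 6 had such a region. Hist2h2bb had 38 reads against 1 input read at 461 bp, a ratio of 15.1 (2.56 to 613). Hist1h2bg (chr13:23663655-23664074, 600 bp) had 36 reads against 0 (at least 4.78-fold). Hist1h2bq had 30 reads, Hist1h2bn 28, and Hist1h2bh and Hist1h2bk 26 each, all with 0 input reads. Hist2h2bb and Hist1h2bg, whose octamers are shown above, were the highest of the class and Hist1h2bk, with the same element, was at the threshold. The other H2B genes with an octamer, Hist1h2bm, Hist1h2be and Hist1h2bb, had no region up to 1 kb downstream. The median over the 6 regions was 29 reads.

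H3 was the class with the most regions, at 8 of 12 genes. Hist2h3c1 (chr3:96049744-96050212) had 41 reads against 0 at 502 bp (at least 5.44-fold), and because its deposited model overlaps that of Hist2h2aa1, the same region lay 518 bp downstream of that H2A gene. Hist1h3d (chr13:23667973-23668246, 478 bp) had 35 reads against 0 (at least 4.64-fold). The other 6 were Hist1h3e with 33 reads, Hist1h3g, Hist2h3b and Hist2h3c2-ps with 32, Hist1h3c with 30 and Hist1h3f with 26, all with 0 input reads. All 3 H3 genes of the Hist2 cluster and 5 of 9 in Hist1 had a region. Hist2h3c2-ps is named as a pseudogene in the deposited table and is protein-coding (H3c15) in RefSeq.

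Of the 13 H4 genes, 4 had a region up to 1 kb downstream. Hist4h4, which stands alone on chromosome 6, had 33 reads against 1 input read at 234 bp (chr6:136752561-136752769), a ratio of 13.1 (2.20 to 534). Hist1h4i had 30 reads at 980 bp, Hist1h4a 28 at 738 bp and Hist1h4j 26 at 558 bp, each with 0 input reads. H4 was the class farthest from Spt16 regions, with a median distance of 3509 bp from a gene start to the nearest region middle, against 642 bp for H1, 648 bp for H3, 739 bp for H2A and 883 bp for H2B. A region met the gene itself in 1 of 13 H4 genes (7.69%, 95% Clopper-Pearson interval 0.195 to 36.0) and in 8 of 12 H3 genes (66.7%, 34.9 to 90.1). For H1 it was 4 of 6, for H2A 6 of 16 and for H2B 6 of 15. A region also meets a long deposited gene more easily than a short one. The regions at Hist1h4j, Hist1h4i and Hist1h4a met no gene, with middles 132, 444 and 200 bp past the deposited gene end. Neighbouring genes share regions, so these shares are not independent and their difference was not tested.

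**Figure D2:**
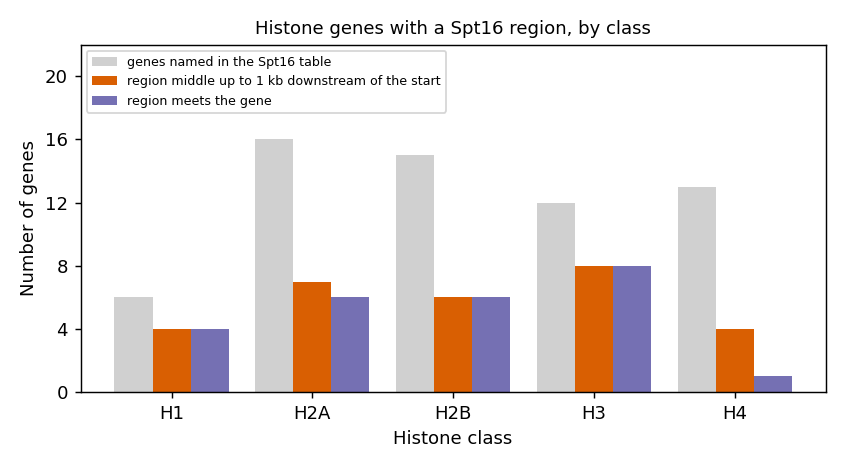
Number of histone genes of each class named in the Spt16 gene table (grey), with the middle of a Spt16 region up to 1 kb downstream of the start (orange), and met by a region by at least 1 bp (violet). H4 has 13 named genes and 1 that a region meets; H3 has 12 and 8.

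Relative to the annotated genes, the Spt16 regions with a histone start within 1 kb lay downstream of histone starts and not over them. Of the 32 regions, 28 had a histone start within 1 kb of their middle, and 36 of the 62 genes had such a region, where 0.475% of protein-coding RefSeq genes had one. The regions chose the genes, so nothing is read from that difference. In these 28 regions the direction was uniform, and all 28 lay downstream of one, by 234 to 980 bp with a median of 566.5 bp (quartiles 494 and 665.25). No region covered the start of any histone gene. None of the 62 windows from 250 bases before to 50 after a deposited start met a Spt16 region. The middle of the region was inside the gene at 16 of the 28 and past its annotated end at 12, by up to 444 bp, and 12 regions spanned the end. Because the clusters are dense, 12 of the 28 also lay within 1 kb upstream of another histone start, and for 3 of them that start was the nearer one. This position was not used to choose the genes.

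**Figure D3:**
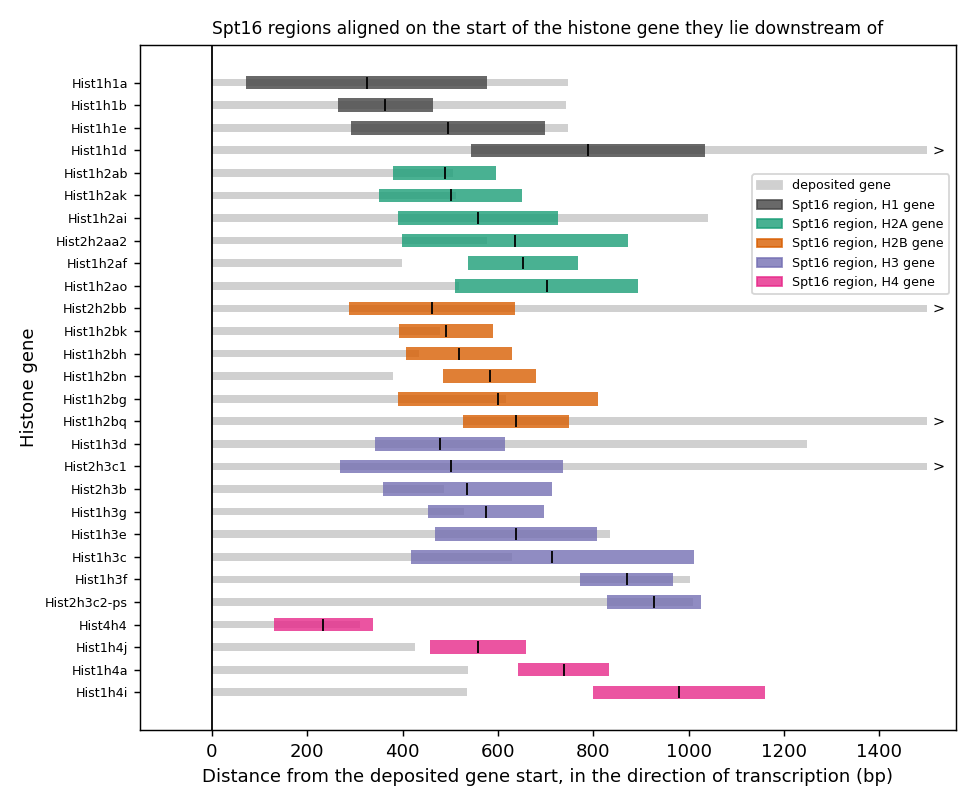
The 28 Spt16 regions with a histone start within 1 kb (coloured bars, black tick at the middle) drawn in bp from the deposited start of the histone gene they lie downstream of, over the deposited gene (grey; an arrowhead marks a gene longer than the axis). The middles run from 234 bp at Hist4h4 to 980 bp at Hist1h4i, and no bar reaches the start.

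The same position was measured for the other Spt16 regions with a named gene start within 1 kb. Of all 160 such regions, 69.4% lay downstream of a start, and of the 132 at genes other than histones, 83 did (62.9%, 95% Clopper-Pearson interval 54.0 to 71.1; 87.7 to 100 for the 28 histone regions). By the nearest start alone, 25 of 28 histone regions were downstream (89.3%), against 79 of the 132 (59.8%). Many histone regions are neighbours at close gene copies, so they are not independent, and the difference was not tested. The 132 were not of 1 kind. At genes for U RNAs, the short spliceosomal and related RNAs, 31 of 32 regions were downstream (96.9%, 83.8 to 99.9), with a median of 629 bp from the nearest start. At the remaining 100 regions 52 were (52.0%, 41.8 to 62.1), and their middles lay on either side of the start, with a median of -29 bp. Those 100 were mixed as well: at the 23 whose nearest gene had a snoRNA name or was at most 300 bp long, 16 lay downstream of a start (69.6%, 47.1 to 86.8), among them Snora33 at 590 bp and Snord118 at 443 bp, and at the other 77 it was 36 (46.8%, 35.3 to 58.5). A position downstream of the start was therefore common to regions at histone genes and U RNA genes. At the 23 short genes the share was near the 69.4% of all 160 regions, and the median position against the nearest start was 208 bp.

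Within 300 bp of the nearest start lay 1 of the 28 histone regions (3.57%) and 43 of the 100 regions at genes other than histones and U RNAs. A start was covered by 0 of 28 histone regions, 2 of 32 U RNA regions and 24 of those 100, against 16.2% of all 160. Gene length moved with this result: among the 132 regions, 50 of 60 at genes of up to 1500 bp lay downstream (83.3%) and 33 of 72 at longer genes (45.8%). The part of gene length in the histone result was not tested.

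**Figure D4:**
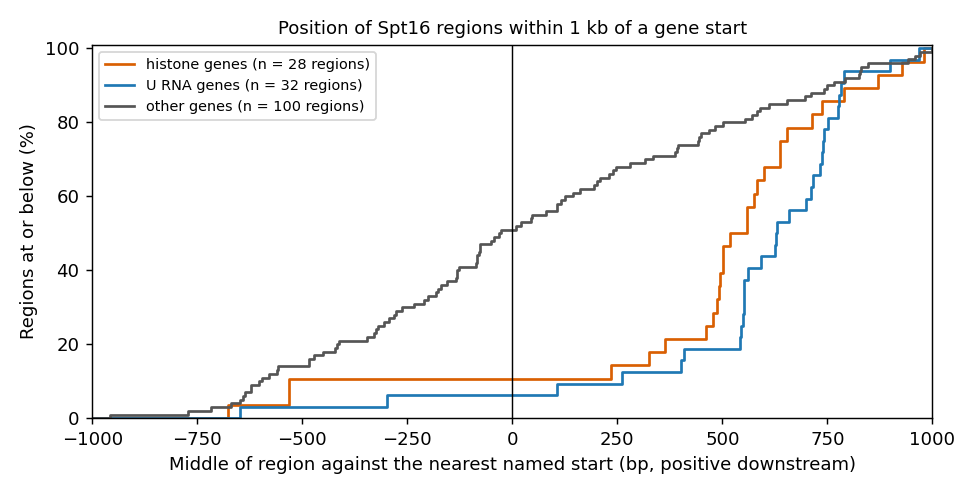
Cumulative share of Spt16 regions (percent) by the position of their middle against the nearest named start (bp, positive downstream), for regions at histone genes (28), U RNA genes (32) and other genes (100). Of the regions at other genes 49% lie downstream of the nearest start and the curve rises steadily, while histone and U RNA regions gather around medians of 538.5 and 629 bp downstream.

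Regions without a histone start within 1 kb numbered 4. One (chr3:96051186-96051467, 34 reads against 0) lay 1850 bp into the deposited model of Hist2h3c1. Another (chr13:23677043-23677383, 34 against 0) was 3747 bp downstream of Hist1h4d and inside the deposited model of Hist1h2be, which spans 37382 bp. One more (chr13:23583846-23584183, 31 against 0) lay 3289 bp from Btn2a2, a butyrophilin gene, and 38904 bp from Hist1h4h. The last (chr3:96132835-96133323, 43 against 0, at least 5.70-fold) had a U1 RNA gene 732 bp away and its only named histone gene, Hist2h2bb, 59436 bp away.

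H2A and H2B genes often stand head to head. In 10 such pairs the starts were 168 to 269 bp apart, with a median of 200.5 bp. Regions lay downstream of both genes in 2 pairs (Hist1h2ak with Hist1h2bn and Hist1h2ao with Hist1h2bq), of the H2A gene alone in 1 (Hist1h2ai) and of the H2B gene alone in 2 (Hist1h2bk and Hist1h2bg). In 5 pairs neither gene had one. In no pair did a region cover the shared promoter.

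By stretch, the highest median was that on chromosome 3. Its 7 regions held 32 to 43 reads with a median of 38, or 32 to 41 with a median of 36 without the region nearest to the U1 gene, and the 3 stretches of chromosome 13 had medians of 30, 28 and 31. Their ranges overlapped. Histone genes of a class are close copies, and how the aligner placed reads that match several copies was not stated, so a count can be split or misplaced among copies. Hist1h2bq and Hist1h2br are an example of like genes: their deposited models are both 3787 bp long and their RefSeq promoter windows matched at 300 of 300 bases. A region was listed downstream of the former only, and the nearest lay 22674 bp from the latter. The sequence under that region was not compared, and whether read placement shaped this listing was not tested.

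Did Oct4 or Jmjd1c regions lie at the same sites? None of the 32 histone regions overlapped an Oct4 region (0%, upper 95% Clopper-Pearson limit 10.9%), against 13.4% of all Spt16 regions. Among the 858 other Spt16 regions with 26 to 45 reads, 56 overlapped one (6.53%, 4.97 to 8.39). For Jmjd1c the counts were 0 of 32, 1.12% of all Spt16 regions and 2 of those 858 (0.233%). The nearest Oct4 region on chromosome 3 was 574 kb away (chr3:95467539-95467720, 4987 bp from Mcl1, an anti-apoptotic gene), and on chromosome 13 the nearest was 5336 kb away. Chromosomes 13 and 6 held no Jmjd1c region.

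Depth limits this comparison. The fewest reads listed with 0 input reads were 15 for Oct4 (0.965 RPM) and 23 for Jmjd1c (0.860 RPM), and the Spt16 RPM reached those levels at 7 and 18 of the 32 histone regions. Scaled to the Oct4 library, the Spt16 counts come to 11.0 to 19.1 reads, with a median of 13.6. At the remaining regions, a signal as large as that of Spt16 would have been under the listed minimum of the other list. Listing in the Spt16 table but not in the other tables does not show that the proteins differed there, and the difference was not tested.

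Of 53 genes of histone production, histone chaperones and histones outside the clusters, 6 were counted with a Spt16 region within 50 kb. The background was 7.34% of all protein-coding genes, and the difference was not tested. A list of 22 genes of the histone locus body and of histone mRNA processing included Npat, Slbp and Lsm11. Of these 22, 1 was counted with a Spt16 region within 50 kb and the same 1 with an Oct4 region. The background was 7.34% and 1.48% of all protein-coding genes. These counts miss the U7 RNA gene, which the list held by the symbol Rnu7. A gene deposited as U7 had a Spt16 region 401 bp downstream of its start, with 37 reads against 0. The 1 gene counted was Gapdh, a glycolytic enzyme also found in the complex that activates H2B genes with Oct1. Its nearest Spt16 region was 1011 bp downstream of the start with 36 reads against 1. Its highest was 48790 bp away with 117 against 5, where the Oct4 region held 40 against 3. That highest Spt16 region, which the Oct4 region overlapped, lay within 1 kb of the start of another gene, Vamp1. Among 18 histone chaperone genes, 4 had a Spt16 region within 50 kb, 1 of them within 5 kb, and none an Oct4 region. The share of 22.2%, against 7.34% of all protein-coding genes, was not tested. The 4 genes were Rbbp7, a histone-binding subunit of chromatin complexes (4077 bp, 37 reads against 0), Hat1, which acetylates new H4 (7698 bp, 28 against 0), the nucleolin gene Ncl (48307 bp, 32 against 0) and Daxx, an H3.3 chaperone (nearest 41968 bp). The region nearest to Daxx lay 106 bp from the start of another gene, B3galt4. Among 13 histone genes outside the clusters, such as H2afz and H3f3b, the only one was H2afj (7.69%), whose start was 4103 bp from the region at Hist4h4. None of these genes had a Jmjd1c region within 50 kb, against 0.137% of all protein-coding genes.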

How the data were processed

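Per the submitters' processing notes, the tools were CASAVA 1.4 and Bowtie and the build mm9. Per the file headers, the authors called regions at 10 h against the input of that time, kept those reaching 1 for the log2 ratio and 13 for the Q score, and removed 10 regions found in uninduced cells from the Oct4 list. The region caller, the Bowtie version and the setting for reads that match several places are not given in the sources used here. The deposited tables give whole-number read counts per strand in the best window of each region, the authors' log2 ratio of ChIP to input with 1 added to each, and the authors' score, inferred to be a scaled negative log10 of a p-value. Rank numbers absent from the lists numbered 21 for Oct4, 49 for Spt16 and 28 for Jmjd1c.

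Here, counts were summed over strands and divided by the library totals in the headers. Where the input had 0 reads, 3 input reads per region stood in as a floor and the fold is a lower bound; otherwise the ratio of RPM has an exact binomial interval. Shares have 95% Clopper-Pearson intervals. No molecular identifiers are described, so reads may repeat a molecule and the intervals cover counting error only. A signed distance ran from the deposited gene start to the middle of the region, and 1 bp counted as overlap. Each group holds 1 library, so no test over samples was made. A RefSeq table (GRCm38.p6) gave names and promoters only; all 62 members matched it and 57 had a promoter. Members, gene lists and the position measure were chosen with earlier results of these data known. Regions named in full are the 10 with the highest authors' score that name a member, and others were chosen after their values were seen. The rule also asked for histone regions in several lists and found none. Position and overlap code was tested on simulated data. Python 3.11.15, numpy 2.4.6, pandas 2.3.3, scipy 1.17.1 and matplotlib 3.10.9 were used.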

Additional observations from a re-analysis of the deposited data

How the results depend on the processing

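Of 19 alternatives over 6 results, 18 stayed within the limit set for each. The exception, added after seeing the data like the other position alternatives, kept the higher-scoring part of the list (at or above the median score): there 9 regions had a histone start within 1 kb and all 9 lay downstream, against 28 of 28 in the full list, so the number fell and the direction did not. The share of other regions that lay downstream ranged from 58.2% to 63.4%. Histone genes named by a Spt16 region numbered 48 within 5 kb, 62 within 50 kb and 54 in the higher-scoring part. Oct4 regions named 0 under each of these settings, which was fixed in advance because the full list named none. Overlap with Oct4 was 0% under each overlap rule. That was fixed as well, since the nearest Oct4 region was 574 kb from any histone region. These Oct4 alternatives are counted among the 18 and add no support. The median was 0.873 RPM under each setting, input subtraction included. It could hardly move, since 29 of 32 regions had 0 input reads and the other settings kept 30 of 32. These alternatives are also among the 18 and add little support.

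The planned ratio of Spt16 to Oct4 RPM was not computed, since 0 of 32 histone regions were in both lists. No paired analysis was possible because each group holds 1 library and no result comes from a test over samples; and no replicate was left out. Depth limits mainly the Oct4 list, whose library is the smallest of the ChIP libraries, and regions below the authors' threshold were not examined.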
